A study of Drosophila melanogaster with 16 samples.

Results

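The mitochondrial ribosomal protein genes were taken as the genes of the count table whose FlyBase symbol, looked up by gene identifier, begins with *mRpL* (large subunit) or *mRpS* (small subunit) and whose median count over the 16 libraries was at least 2. Of 71 such symbols in a table of 17490 genes, 70 met the count minimum, 46 with a large-subunit and 24 with a small-subunit symbol, among 16212 genes that met it in all. The remaining symbol, *mRpL53* (FBgn0050481), had no read in any library. A count of 0 over the 526814612 reads counted in all libraries would allow up to 0.00569 CPM (reads scaled to library size). That limit covers counting error alone and holds only where reads can be given to the gene. In the annotation on dm6 all of its exon bases lie within exons of *CG33155* on the same strand, and a read there cannot be given to 1 of the 2 genes. The count of 0 thus sets no limit on the level of *mRpL53*. *mRpL53* lies on chromosome 2R from 13954195 to 13955664. *mRpS34* and *mRpS5* were not analysed here.

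Mitochondria carry their own ribosomes, which translate the few proteins encoded by the mitochondrial genome, all of them subunits of the respiratory complexes and of the ATP synthase. The ribosomal RNAs of these particles are transcribed inside the organelle, while their proteins are encoded in the nucleus, made in the cytoplasm and imported. Some of the proteins have counterparts in the bacterial ribosome, and others are found only in mitochondria. The letters L and S follow the historical naming, and the mammalian counterparts of *mRpS30* and *mRpS18A* sit in the large subunit.

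Whole flies of *Drosophila melanogaster*, 30 per library and 3 to 5 days of age, were sequenced after depletion of ribosomal RNA, as females and males separately, with 2 libraries per sex and line. The control, labelled 208wildtype, was DGRP_208, a wild-derived inbred line. The lines 208ΔA, 208ΔF and 208ΔG each carried an independent deletion of the promoter region and exon 1 of the long noncoding RNA gene *Uhg4*, made in the DGRP_208 background. The stocks of the deletions are kept over the CyO balancer, and the labels give the deletion of the sequenced flies without stating zygosity. The methods call the 2 libraries of a group biological replicates without saying whether they came from separate cultures, so the p-values measure the spread between these libraries.

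Libraries held 13902521 (208ΔG female replicate 1) to 51954693 counted reads (208ΔA male replicate 2), of which the 70 genes took 22886 to 72255 reads, or 0.0980% to 0.189%. Levels below are CPM on the TMM scale, that is, scaled to a library size corrected for composition. *Uhg4* was at 6.66 and 6.67 CPM in DGRP_208 females, at 1.89 and 0.974 CPM in DGRP_208 males and at 0.195 to 1.02 CPM in the deletion libraries, so that 2 deletion male libraries, 1 of 208ΔA and 1 of 208ΔF, lay above 1 DGRP_208 male library. There were 2 libraries with transcripts typical of the opposite sex. The yolk protein gene *Yp1* was at 183 CPM in 208ΔA male replicate 2 and at 3.98 to 28.5 CPM in the remaining males. The seminal fluid gene *Mst57Db* was at 33.3 CPM in 208ΔF female replicate 2 and at 0.844 to 1.96 CPM in the remaining females. The vitelline membrane gene *Vm26Ab* (77.0 CPM) and summed accessory gland markers (69.6 CPM) were likewise highest there within the sex. Other sums did not single out these libraries. Late follicle cell markers summed to 14.2 CPM in that male library, against 57.9 and 66.5 CPM in 208ΔG males. Testis markers summed to 106 CPM in that female library and to 103 CPM in 208ΔG female replicate 1. The TMM factors spanned 0.796 to 1.47, with all 208ΔA libraries at 0.804 to 0.845 and all 208ΔG libraries at 1.17 to 1.47. The median level of 186 chemoreceptor genes, which most cells of the fly do not express, moved with these factors, at 0.350 to 0.930 RPKM (reads scaled to gene length and library size) in 208ΔA and at 2.86 to 5.81 in 208ΔG. Such values were not particular to those lines, since the DGRP_208 males stood apart from each other, with replicate 2 at a factor of 1.304 and 3.37 RPKM, inside the ranges of 208ΔG, and replicate 1 at 0.796 and 0.601 RPKM. In whole flies, fewer cells of a type and less RNA per cell cannot be told apart.

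Per kilobase of gene length, the mean level of the 70 genes over the 16 libraries had a median of 22.9 CPM per kilobase and ran from 7.53 to 76.3. The median was 21.8 for the large-subunit and 24.5 for the small-subunit symbols, against 10.5 for all genes tested, 156 for 77 nuclear genes of oxidative phosphorylation and 506 for 86 genes of the cytoplasmic ribosome. Genes of the mitochondrial ribosome were thus expressed above the median gene and far below the genes of the cytoplasmic ribosome. The highest levels were those of *mRpL33*, 76.3 ± 24.0 CPM per kilobase (SD, n = 16), *mRpL28*, 54.2 ± 8.17, *mRpS14*, 46.9 ± 10.9, and *mRpL27*, 44.9 ± 15.5, all proteins with bacterial counterparts. *mRpL28*, *mRpS14* and *mRpL27* differed by less than their spread over the libraries. The lowest were *mRpL43*, at 10.3 ± 4.65 CPM per kilobase, *mRpL11*, at 9.64 ± 4.21, *mRpL32*, at 8.76 ± 3.58, and *mRpL21*, at 7.53 ± 2.70, which also differed from each other by less than that spread. Over the libraries, the coefficient of variation of a gene ran from 12.2% for *mRpL16* to 51.8% for *mRpL39*. Within groups of line and sex, the biological coefficient of variation estimated by edgeR had a median of 0.241, below that of all genes (0.321).

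The genes were short, with a median of 783 bases (327 to 2078) against 1496 bases for all genes tested, and lay on all major chromosome arms, with 12 on 2L, 11 on 2R, 15 on 3L, 21 on 3R and 11 on X. Exon bases were shared with another gene in 41 of the 70, in 39 of them only with a gene on the other strand. The strand setting of the counting is not given in the sources used here, so reads of these pairs may be mixed. The shared part exceeded 10% of the exon bases in 9 genes, up to 55.3% in *mRpS24* and 48.0% in *mRpS21*. *mRpL13* and *mRpS14* shared bases with a gene on the same strand.

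Transcripts of the mitochondrial ribosomal protein genes took a smaller part of the RNA of males than of females. Averaged over the 4 lines, 42 of the 70 genes were lower in males and 0 higher (edgeR quasi-likelihood test, Benjamini-Hochberg adjusted p under 0.05), where 19.0% of all genes tested were lower and 20.8% higher. By subunit, 31 of 46 large-subunit and 11 of 24 small-subunit symbols were lower. The median log2 fold change, males over females, was -0.49 for the 70 genes, -0.52 for the large and -0.39 for the small subunit, and -0.03 for all genes tested. Fold changes were negative for 67 genes, and their SD over the 70 genes was 0.25, against 1.56 over all genes tested.

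Summed over the 70 genes, the level was 1683 ± 236 CPM (SD, n = 8; lowest 1282, median 1767, highest 1956) in females and 1245 ± 155 CPM (lowest 1058, median 1234, highest 1559) in males. The ranges overlapped through 208ΔG, whose females were at 1282 and 1459 CPM, and through 208ΔA male replicate 2, at 1559 CPM. Within each line, however, both female libraries lay above both male libraries, as the plot of the summed level shows. The ratio of the male to the female mean was 0.740, and by line it was 0.731 in 208ΔA, 0.778 in 208ΔF, 0.824 in 208ΔG and 0.647 in DGRP_208. The large-subunit genes summed to 1070 ± 162 CPM in females and 777 ± 106 CPM in males, and the small-subunit genes to 613 ± 74.4 and 468 ± 50.8 CPM.

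**Figure D1:**
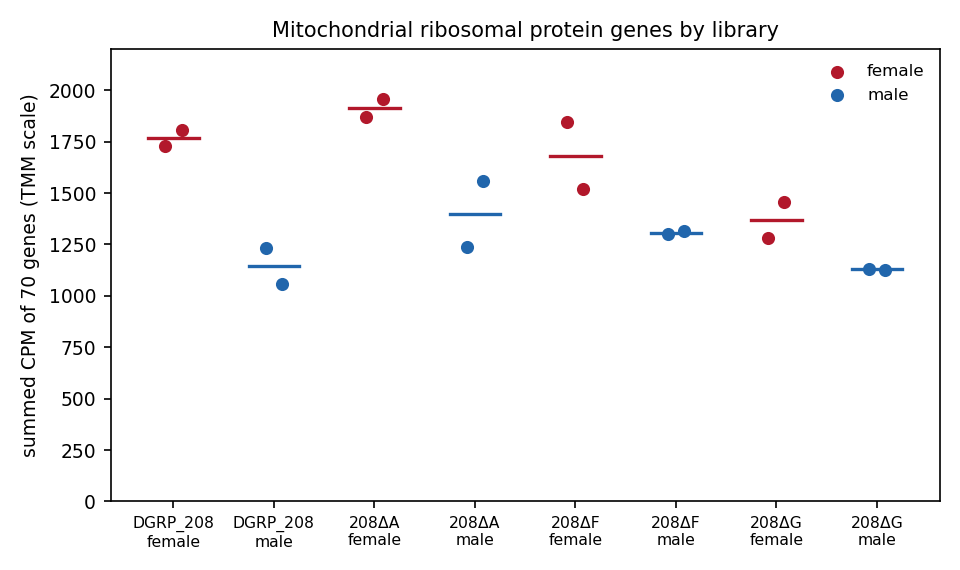
Summed level of the 70 mitochondrial ribosomal protein genes (CPM on the TMM scale, vertical axis from 0) in each of the 16 libraries, by line and sex, with bars at the mean of the 2 libraries of a group. Within every line both females lie above both males, and 208ΔG females, at 1282 and 1459 CPM, are the lowest of the females.

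The smallest p-value between the sexes was that of *mRpL1* (FBgn0037566, chromosome 3R, 8301440 to 8302770), the protein of the mobile L1 stalk of the large subunit. Its level was 22.1 CPM in the lowest, 32.1 in the median and 37.3 in the highest female library, and 12.9, 14.2 and 23.8 CPM in males. The overlap came from a single male library, the 208ΔA male library with yolk protein transcripts, and the other 7 males lay at or below 14.7 CPM. Males over females, the log2 fold change was -1.02 ± 0.13 (standard error, edgeR adjusted p = 7.4e-05), or -1.19 without the 2 libraries that held transcripts of the other sex.

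*mRpL12* (FBgn0011787, chromosome 3L, 8956791 to 8957584) encodes the stalk protein that recruits translation factors to the ribosome. Its levels were 20.6 to 40.8 CPM in females (median 35.2) and 16.1 to 27.3 CPM in males (median 19.3), with a log2 fold change of -0.70 ± 0.11 (edgeR adjusted p = 4.1e-04). Within each line both females lay above both males, and the sexes overlapped only between libraries of different lines. *mRpL38* (FBgn0030552, chromosome X, 14226289 to 14227949), a mitochondria-specific large-subunit protein, was at 32.3 to 41.1 CPM in females and 20.4 to 26.0 CPM in males, without overlap. *mRpL47* (FBgn0014023, chromosome 3R, 9514822 to 9515908), the counterpart of bacterial L29, was at 19.0 to 27.3 CPM in females and 13.3 to 18.3 CPM in males, also without overlap. Their log2 fold changes were -0.60 ± 0.093 and -0.65 ± 0.11.

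Of the small-subunit symbols, *mRpS35* (FBgn0035374, chromosome 3L, 2780899 to 2782105), a mitochondria-specific protein, had the smallest p. It was at 16.1 CPM in the lowest, 29.9 in the median and 33.0 in the highest female, and at 12.9, 15.1 and 17.7 CPM in males. Only 208ΔG female replicate 1, at 16.1 CPM, reached into the range of the males. The log2 fold change was -0.85 ± 0.12 (edgeR adjusted p = 1.9e-04). The largest fold change, chosen after its value was seen, was that of *mRpL39*, -1.14 ± 0.23, a mitochondria-specific large-subunit gene at 8.45 to 36.2 CPM in females and 6.61 to 21.0 CPM in males.

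A few genes did not follow. *mRpS17*, whose product has a bacterial counterpart in the small subunit, was at 18.2 to 36.4 CPM in females (median 23.9) and 20.6 to 30.2 CPM in males (median 26.8), with a log2 fold change of 0.12 ± 0.12 (edgeR adjusted p = 0.535). *mRpS33* and *mRpL16* had log2 fold changes of 0.0014 and 0.00052 and changed sign with the scaling of the libraries. *mRpL28*, among the most abundant of the 70, had one of -0.05 ± 0.084 (edgeR adjusted p = 0.728). These ranges of the sexes overlapped over most of their width. At the threshold, *mRpL17* and *mRpL35* lay just inside with an adjusted p of 0.0497 each, and *mRpL41* and *mRpS18A* just outside with 0.0549 and 0.0564. At an adjusted p under 0.1 the count was 49 lower and 0 higher, where 22.2% of all genes were lower.

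**Figure D2:**
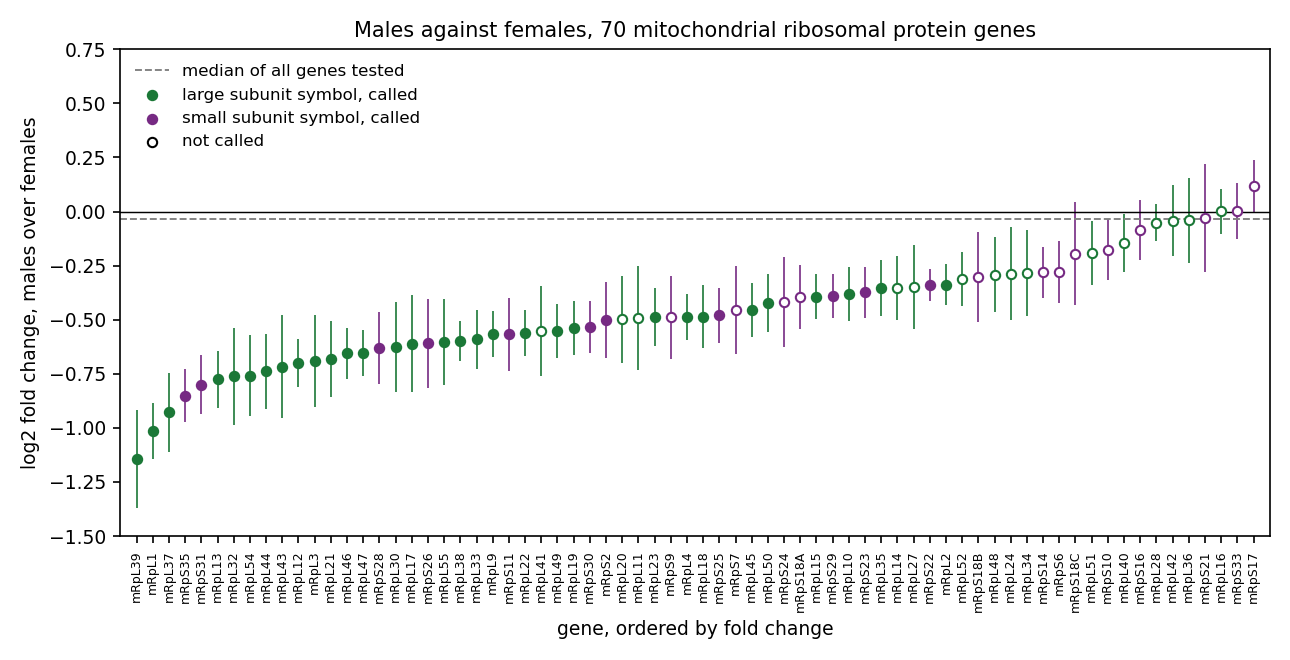
Log2 fold change, males over females (vertical axis), of the 70 genes in order of size, with standard errors from edgeR. Filled points passed an adjusted p under 0.05 (42 genes, all below 0), open points did not, colours give the subunit of the symbol, and the dashed line is the median of all genes tested (-0.03).

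The direction was shared by the lines. Within 208ΔA, 208ΔF, 208ΔG and DGRP_208, 65, 62, 65 and 68 of the 70 genes had a lower mean in males, with median log2 ratios of -0.48, -0.42, -0.30 and -0.65. The mean was lower in males in all 4 lines for 59 genes, in 3 lines for 4 and in 2 lines or fewer for 7, which were *mRpL16*, *mRpL28*, *mRpL42*, *mRpS16*, *mRpS17*, *mRpS21* and *mRpS33*. Both female libraries lay above both male libraries within every line for 23 genes (32.9%), 18 large and 5 small, as did 13.4% of all genes tested. Every female library lay above every male library for *mRpL15*, *mRpL19*, *mRpL38*, *mRpL46*, *mRpL47* and *mRpL49* (8.57%, against 5.41% of all genes), and the reverse held for 0 of the 70 (12.8% of all genes). For a sex difference that varied by line, edgeR called 0 of the 70 genes and 0% of all genes, with 0 of the 70 at an unadjusted p under 0.05. The other tools, DESeq2, limma-voom and a linear model fitted gene by gene, also called 0 of the 70.

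**Figure D3:**
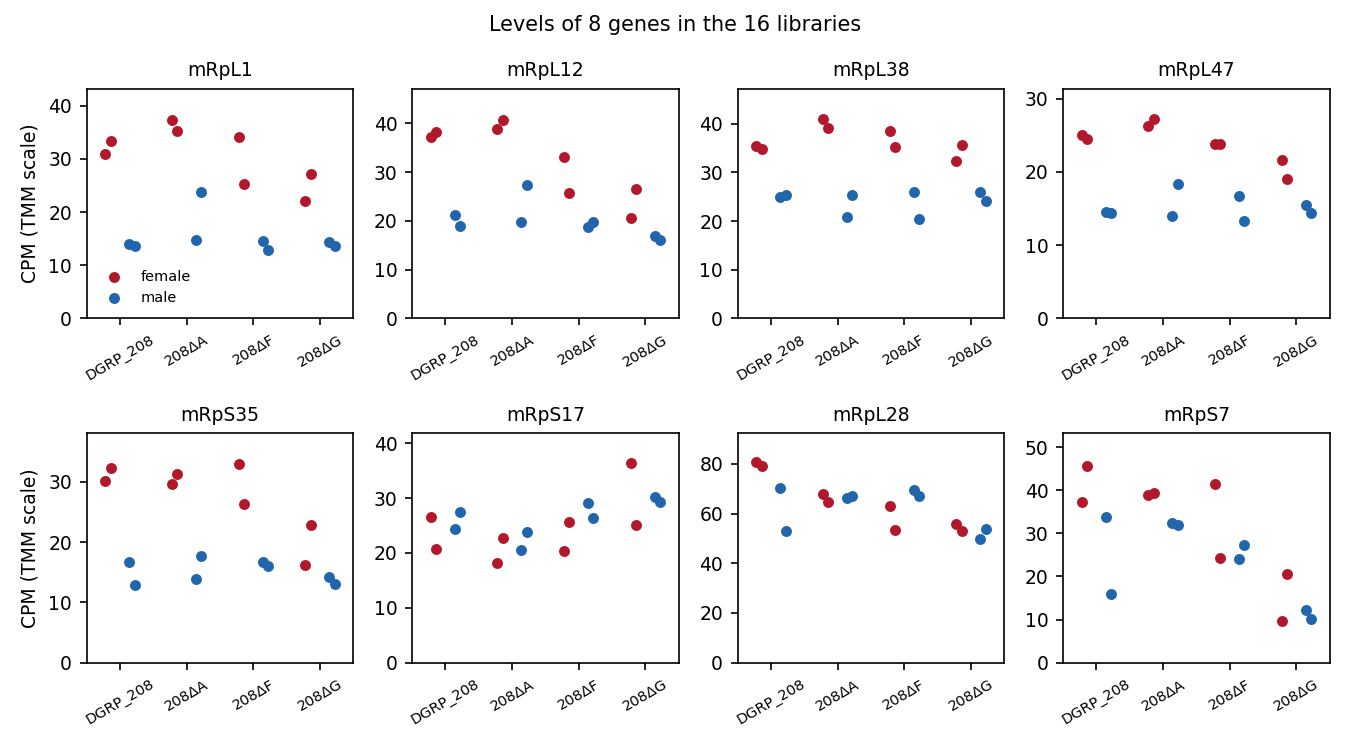
CPM on the TMM scale (vertical axes from 0) of 8 genes in each library, by line, with females in red and males in blue. *mRpL38* and *mRpL47* separate the sexes without overlap, *mRpS17* and *mRpL28* do not, and *mRpS7* is at 9.72 to 20.6 CPM in 208ΔG and at 31.9 to 39.4 CPM in 208ΔA.

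The 42 genes lower in males were longer than the other 28, with a median of 907 against 640.5 bases, and had lower levels, with a median of 20.7 against 29.3 CPM per kilobase. Over all genes tested the fold change also fell with length, with a Spearman correlation of -0.17, against -0.35 over the 70. With level per kilobase the correlations were -0.11 over all genes and 0.45 over the 70. The share called was 17 of 29 among genes without shared exon bases and 25 of 41 among those with shared bases. By chromosome arm it was 5 of 12 on 2L, 5 of 11 on 2R, 12 of 15 on 3L, 12 of 21 on 3R and 8 of 11 on X, with median log2 fold changes of -0.36, -0.39, -0.61, -0.49 and -0.55. The X was thus within the range of the autosomal arms.

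The partners of these proteins were read in the same fit. The small-subunit proteins encoded by *tko* and *bonsai*, which carry other symbols, were lower in males as well. *tko* was at 34.5 to 55.8 CPM in females and 25.9 to 36.1 CPM in males, with a log2 fold change of -0.61 (edgeR adjusted p = 8.4e-04), and *bonsai* had one of -0.74 (adjusted p = 0.0191). The ribosomal RNAs of the particle, *mt:lrRNA* and *mt:srRNA*, did not pass the test, with log2 fold changes of -0.02 and -0.09 (edgeR adjusted p = 0.974 and 0.949), and the libraries had been depleted of ribosomal RNA. Of 7 genes of mitochondrial transcription and RNA stability, 5 were lower in males, among them *bsf*, which stabilises mitochondrial transcripts, with -1.20, and *TFAM*, which packages mitochondrial DNA, with -0.63.

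Not all of the mitochondrial translation machinery was lower in males. Of 8 translation factors, 2 were higher and 3 lower. *mEFTs*, an elongation factor, was at 33.1 to 78.8 CPM in females and 102 to 300 CPM in males, without overlap, with a log2 fold change of 1.66 (edgeR adjusted p = 1.5e-05). The elongation factors *mEFTu2* and *mEFG1* had log2 fold changes of 0.83 and -1.08. Of 15 mitochondrial aminoacyl-tRNA synthetases, which load tRNAs with amino acids, 3 were higher in males and 6 lower, with log2 fold changes of 2.89 for *TrpRS-m* and 2.36 for *CysRS-m*. Of 77 nuclear genes of oxidative phosphorylation, 19 were higher in males and 0 lower, with a median of 0.04, and the smallest p-values belonged to the paralogs *ATPsynepsilonL* (3.78) and *ATPsynCF6L* (3.92).

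The cytoplasmic ribosome moved further in the same direction. Of 86 cytoplasmic ribosomal protein genes, 79 were lower in males and 7 higher, with a median log2 fold change of -1.14. The smallest p-values there were those of the paralogs *RpS10a* (2.77) and *RpS5b* (-3.35). Markers of sex-specific tissue moved with sex too. Over the 7 germ line markers of the ovary, 6 were lower in males, and their summed level was 445 to 2283 CPM in females and 258 to 640 CPM in males. The 6 markers of late follicle cells were all lower in males (208 to 2763 against 7.51 to 66.5 CPM), 8 of 10 testis markers were higher (14.6 to 106 against 730 to 2012 CPM), and the 4 accessory gland markers were all higher (6.73 to 69.6 against 2006 to 6351 CPM). Of the 4 flight muscle markers 0 were called, with summed levels of 2238 to 7620 CPM in females and 2287 to 7698 CPM in males, and 3 of 5 fat body markers were lower in males. The smallest p-values of these lists belonged to *piwi* (-3.28) and *vas* (-2.89) of the germ line, *Cp36* (-4.15) and *Cp38* (-4.92) of the follicle cells, *Mst98Cb* (5.82) and *dj* (7.16) of the testis, *Acp36DE* (7.79) and *SP* (9.54) of the accessory gland and *Yp2* (-4.93) and *Yp1* (-4.60) of the fat body, all as log2 fold changes, while *Act79B* (0.47) and *Act88F* (-0.09) of flight muscle were not called. The part of these tissues in the difference of the mitochondrial ribosomal protein genes was not tested.

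The sex difference kept its direction in all settings tried, with 0 of the 70 genes higher in males in each. The count of genes lower in males was 43 without the 2 libraries that held transcripts of the other sex, with a median of -0.59. It was 26 with GeTMM factors, where 14.7% of all genes were lower, and it moved when single libraries were left out. Here and below, counts from other tools and from fits that leave out libraries stand without the share of all genes called. Such counts are not read as particular to the 70 genes. *mRpL1*, *mRpL12*, *mRpL38*, *mRpL47* and *mRpS35* were among 21 genes called in all 29 alternatives.

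The deletion lines were then compared with DGRP_208, the question being whether loss of *Uhg4* came with a change in these genes. With the sexes averaged, edgeR called 0 of the 70 genes, where it called 0.117% of all genes tested, and 1 of the 70 had an unadjusted p under 0.05. In females it called 0 of the 70 (0.130% of all genes), with 1 at an unadjusted p under 0.05, in males 0 of the 70 (0.0617% of all genes), with 2, and for the difference of the deletion effect between the sexes 0 of the 70 (0% of all genes), with 2. The other 3 tools also called 0 of the 70 in each of these comparisons. A p-value that misses the threshold does not show that the levels were equal.

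The members with the smallest p are given as values. *mRpL28* (FBgn0031660, chromosome 2L, 4973976 to 4975316), a large-subunit protein with a bacterial counterpart, was at 80.9 and 79.2 CPM in DGRP_208 females. In deletion females it was at 67.9 and 64.6 CPM in 208ΔA, 63.0 and 53.4 CPM in 208ΔF and 55.7 and 52.8 CPM in 208ΔG, all below both controls. The log2 fold change was -0.43 ± 0.13, which did not pass the test over all genes (edgeR adjusted p = 0.760).

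In males *mRpL28* showed no such order, with 70.5 and 52.9 CPM in DGRP_208 and 49.6 to 69.7 CPM in the deletion lines. The 2 control libraries there were farther apart than in females. The male minus the female log2 fold change was 0.43 ± 0.19 (edgeR adjusted p = 1.00). Over the 29 alternatives with the sexes averaged and the 30 for the comparison in females, the fold change of *mRpL28* stayed negative and was not called.

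*mRpS7*, a protein of the head of the small subunit with a bacterial counterpart, was at 37.2 and 45.8 CPM in DGRP_208 females, at 39.0 and 39.4 CPM in 208ΔA, at 41.5 and 24.2 CPM in 208ΔF and at 9.72 and 20.6 CPM in 208ΔG. Only the 208ΔG females and 1 female library of 208ΔF lay below the controls by more than the distance between the controls. The log2 fold change over the 3 lines was -0.62 ± 0.32 (edgeR adjusted p = 1). *mRpL11*, a protein of the region of the large subunit where translation GTPases bind, had a fold change of -0.65 ± 0.38, and *mRpL12* one of -0.32 ± 0.18, neither called.

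In males the smallest p-values went with values above the controls. *mRpS23*, a mitochondria-specific small-subunit protein, was at 8.53 and 9.71 CPM in DGRP_208 and at 10.9 to 14.6 CPM in the 6 deletion males, without overlap, with a log2 fold change of 0.47 ± 0.19 (edgeR adjusted p = 0.999). *mRpS22*, also mitochondria-specific, was at 34.6 and 31.0 CPM in DGRP_208 and at 36.3 to 46.4 CPM in the deletion males, again without overlap, with 0.29 ± 0.12. *mRpL40* had a log2 fold change of 0.46 ± 0.23 and *mRpS18A* one of 0.49 ± 0.25, and with the sexes averaged *mRpS18A* had one of 0.30 ± 0.17 and *mRpL19* one of 0.23 ± 0.15. In females *mRpS22* stood at 47.9 and 51.2 CPM in DGRP_208 and at 41.6 to 54.3 CPM in the deletion lines, with the controls inside that range.

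**Figure D4:**
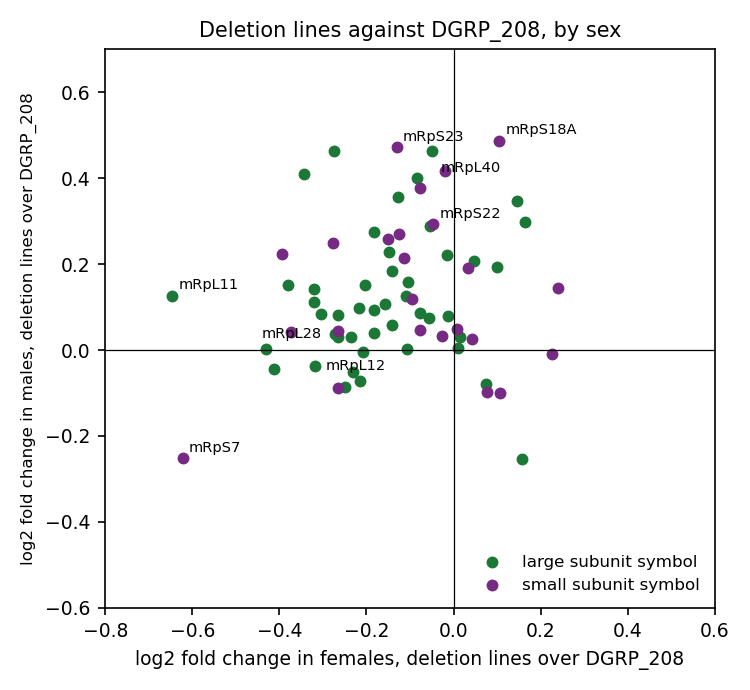
Log2 fold change, deletion lines over DGRP_208, of the 70 genes in females (horizontal axis) and in males (vertical axis), coloured by subunit of the symbol. None of the points passed the test in either sex, and 54 of 70 lie below 0 in females and 57 of 70 above 0 in males, splits that move to 39 and 31 of 70 without 2 libraries.

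Over the 70 genes the median log2 fold change was 0.00 with the sexes averaged (37 above 0 and 33 below), -0.13 in females (16 above 0 and 54 below) and 0.10 in males (57 above 0 and 13 below), against -0.04, -0.01 and -0.05 for all genes tested. These medians moved with single libraries. Without the 2 libraries that held transcripts of the other sex, the median was -0.03 in females (31 above 0 and 39 below) and -0.03 in males (31 above 0 and 39 below). Leaving out 1 library at a time, the median in females ran from -0.22 to 0.01, the last without DGRP_208 female replicate 2, and in males from -0.03 to 0.24, the first without 208ΔA male replicate 2. The difference between the sexes had a median of 0.28, with 62 genes above 0. No value for all genes is set beside that split, so it is not read as particular to the 70 genes. It is the male minus the female fold change, and without the 2 libraries named above the medians of both were -0.03. The largest entries of the difference by p were *mRpS23*, with 0.60 ± 0.27, *mRpS22*, with 0.34 ± 0.17, and *mRpL42*, with 0.74 ± 0.38, none of them called.

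All deletion females lay below both DGRP_208 females for *mRpL28*, *mRpL49* and *mRpL2* (4.29% of the 70, against 2.92% of all genes) and above them for *mRpL19* (1.43%, against 1.61%). All deletion males lay above both DGRP_208 males for *mRpL16*, *mRpS22* and *mRpS23* (4.29%, against 2.76%) and below them for 0 of the 70 (1.54% of all genes). Among the partners, *tko* had a log2 fold change of -0.02 in deletion females and 0.25 in deletion males, and *bonsai* -0.33 and 0.30, none called. *mt:srRNA* had -2.22 ± 0.94 in deletion females (edgeR adjusted p = 1), at 16.7 to 917 CPM over the female libraries, which had been depleted of ribosomal RNA. In deletion females edgeR called 0 of 86 cytoplasmic ribosomal protein genes, with a median of -0.35, and 0 of 77 genes of oxidative phosphorylation, with a median of -0.30, while the 6 late follicle cell markers had a median of -2.06. Of these lists the smallest p-values in deletion females were those of *RpS14b* and *RpS25* (-0.53 and -0.63), *COX8* and *COX7AL2* (-0.65 and -0.61) and *Cp36* and *Cp19* (-2.11 and -2.94), none called. The part of that tissue in the values of deletion females was not tested. Of the genes of mitochondrial translation and RNA stability the smallest p-values were those of *mEFTs* and *mRF1* (-0.20 and 0.12), *AspRS-m* and *AlaRS-m* (-0.26 and 0.23) and *mTTF* and *bsf* (-0.38 and 0.17), and of the remaining markers those of *grk* and *vas* (0.16 and -0.30), *dj* and *Mst98Cb* (1.81 and 0.75), *Mst57Db* and *SP* (1.82 and 2.13), *TpnC4* and *Act79B* (-0.52 and -0.43) and *apolpp* and *Yp1* (0.64 and -1.25), none of them called.

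By line, against the same DGRP_208 libraries, edgeR called 0 of the 70 genes in 208ΔA (0.167% of all genes), 0 in 208ΔF (0.0740%) and 0 in 208ΔG (0.271%). At an unadjusted p under 0.05 there were 4, 0 and 21 of the 70. Counts at an unadjusted p are given here and below without the share of all genes. They are not read as particular to the 70 genes. The median log2 fold changes of the 70 genes were 0.24, 0.05 and -0.27, and their signs turned with the scaling, to -0.0024, -0.03 and 0.19 with libraries scaled by size alone. The 4 of 208ΔA were *mRpS30*, with 0.53 ± 0.17, *mRpS10*, with 0.53 ± 0.20, *mRpS22*, with 0.27 ± 0.11, and *mRpL37*, with 0.59 ± 0.26, all above DGRP_208 (edgeR adjusted p = 0.325 each). In 208ΔF the smallest p-values belonged to *mRpS18A*, *mRpS10*, *mRpL50* and *mRpL51*, with log2 fold changes of 0.35, 0.32, 0.29 and 0.30.

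In 208ΔG 20 of the 21 genes were below DGRP_208 on the TMM scale. The smallest p-values were those of *mRpS7*, with a log2 fold change of -1.30 ± 0.29 (edgeR adjusted p = 0.0738), *mRpS9*, with -0.97 ± 0.27, *mRpL28*, with -0.41 ± 0.12, and *mRpL51*, with -0.70 ± 0.21. At an adjusted p under 0.1, 7 of the 70 (10%) were lower and 0 higher, a share close to the 10.7% of all genes that passed. DESeq2 called 9 of the 70 at an adjusted p under 0.05, and the other 2 tools, limma-voom and the linear model, called 0. The edgeR count was 24 without DGRP_208 male replicate 2 and 9 without 208ΔG female replicate 2. *mRpL28* was above DGRP_208 (0.07) when libraries were scaled by size alone.

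The lines differed most between 208ΔG and 208ΔA. In that comparison 37 of the 70 genes were lower and 4 higher in 208ΔG at an edgeR adjusted p under 0.05, together 58.6%, where 57.9% of all genes were called, 30.1% lower and 27.8% higher. The share called in either direction was close to the background, and the 70 genes fell mostly on the lower side. Of the large-subunit symbols 26 were lower and 1 was higher, and of the small-subunit symbols 11 were lower and 3 higher. The median log2 fold change was -0.47, against 0.01 for all genes tested, and the fold changes of the 70 genes had an SD of 0.61.

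*mRpS26* (FBgn0036774, chromosome 3L, 18106579 to 18107499), a mitochondria-specific small-subunit protein, was at 38.9 and 36.7 CPM in 208ΔA females and 8.35 and 17.1 CPM in 208ΔG females. In males it was at 22.9 and 31.1 CPM in 208ΔA and 10.2 and 8.29 CPM in 208ΔG. The lines did not overlap in either sex, and the log2 fold change was -1.56 ± 0.30 (edgeR adjusted p = 0.0100). *mRpS26* in DGRP_208 was at 28.3 and 33.4 CPM in females and at 19.9 and 9.42 CPM in males, so that 1 control male lay within the range of 208ΔG.

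*mRpS7* (FBgn0032236, chromosome 2L, 10386662 to 10387652), described above in females, was at 32.4 and 31.9 CPM in 208ΔA males and 12.2 and 10.2 CPM in 208ΔG males, with a log2 fold change over both sexes of -1.45 ± 0.29. *mRpL54*, a mitochondria-specific large-subunit protein, was at 10.8 and 11.6 CPM in 208ΔA females and 3.96 and 5.74 CPM in 208ΔG females, with -1.32 ± 0.26. For these genes too the lines did not overlap within either sex. *mRpS9*, a small-subunit protein with a bacterial counterpart that shares 25.1% of its exon bases with *ArgRS-m* on the other strand, had a log2 fold change of -1.32 ± 0.27, and *mRpS30* one of -0.83 ± 0.17.

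The genes higher in 208ΔG were few. *mRpS18B* (FBgn0032849, chromosome 2L, 20096329 to 20097253), a small-subunit gene, was at 19.2 and 24.0 CPM in 208ΔA females and 42.7 and 32.3 CPM in 208ΔG females, and at 14.4 and 16.1 CPM and 29.5 and 32.5 CPM in males, without overlap in either sex. Its log2 fold change was 0.91 ± 0.30 (edgeR adjusted p = 0.0241). *mRpS17*, *mRpS28* and *mRpL48* had log2 fold changes of 0.51 ± 0.17, 0.66 ± 0.24 and 0.63 ± 0.24, and *mRpL20*, with 0.68 ± 0.29, was not called (adjusted p = 0.0614). The call of *mRpL48* was kept in 12 of 28 alternatives.

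Both 208ΔG libraries lay below both 208ΔA libraries in each sex for 39 of the 70 genes (55.7%, against 33.5% of all genes). They lay above for *mRpS18B*, *mRpS18C*, *mRpS28*, *mRpS17*, *mRpL45*, *mRpL20* and *mRpS2*, 7 of the 70, against 30.5% of all genes. Of the genes with no shared exon bases, 14 of 29 were lower in 208ΔG. Among the partners, *bonsai* was lower in 208ΔG, with -1.27, and so was *mt:lrRNA*, with -1.55 (edgeR adjusted p = 0.0110 and 0.0210), while *tko*, with -0.27, and *mt:srRNA*, with -1.48, were not called.

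The direction of these genes depended on the scaling of the libraries, which differed between the lines as given above. With libraries scaled by size alone, 25 of the 70 genes were higher and 7 lower in 208ΔG. Of all genes tested, 50.3% were higher and 8.9% lower in that fit. The median of the 70 was then 0.25 and that of all genes was 0.73. A scaling factor moves all genes of a library alike, so the distance between both medians, -0.47 with TMM, is nearly fixed by construction under the scalings. The chemoreceptor covariate, also in the plot, is not a scaling, and with it the distance was -0.16. The summed share of counts of the 70 genes was 1.14 times as high in 208ΔG as in 208ΔA females and 1.38 times as high in males, while on the TMM scale the same ratios were 0.717 and 0.808.

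**Figure D5:**
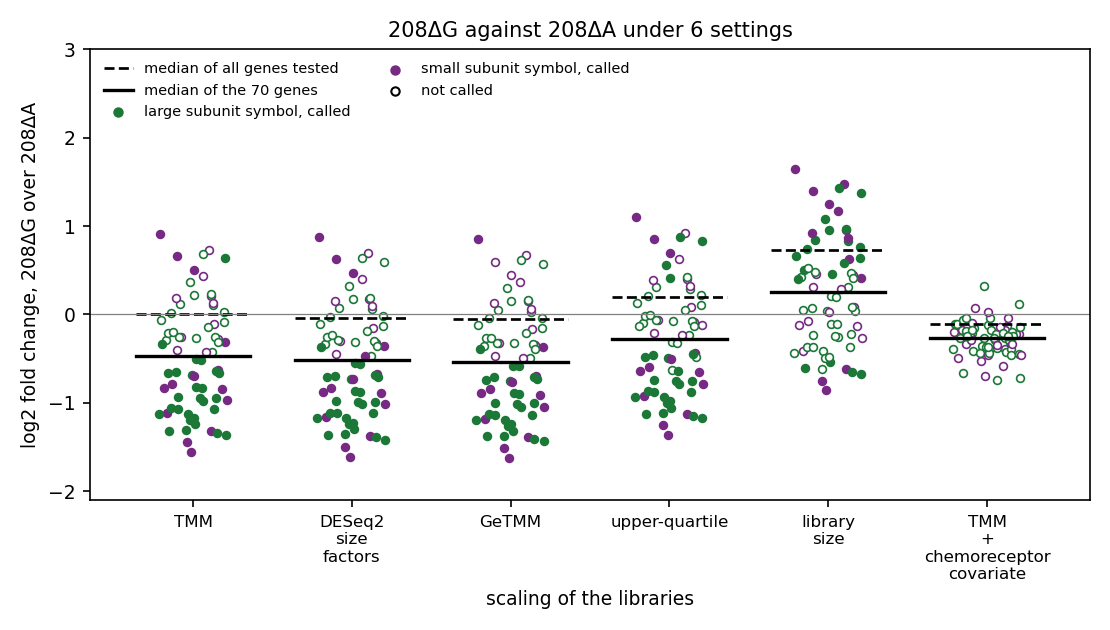
Log2 fold change, 208ΔG over 208ΔA (vertical axis), of the 70 genes under 6 ways of scaling or adjusting the libraries, with solid bars at their median, dashed bars at the median of all genes tested and filled points for called genes. The median of the 70 genes is -0.47 with TMM and 0.25 with library size alone, while the median of all genes moves with it, and with the chemoreceptor covariate no gene is called.

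Other genes moved in this comparison too. Of the cytoplasmic ribosomal protein genes 79 of 86 were lower in 208ΔG, of the genes of oxidative phosphorylation 60 of 77 were lower and 5 higher, and 122 of 176 chemoreceptor genes were higher and 5 lower. All 4 flight muscle and all 5 fat body markers were lower, as were 3 of 7 germ line markers of the ovary. With the chemoreceptor level entered as a covariate, edgeR called 0 of the 70 genes and 0 of all genes tested between 208ΔG and 208ΔA. The median of the 70 was then -0.26, against -0.10 for all genes tested. The chemoreceptor levels of the 2 lines did not overlap, so that the covariate and the line cannot be told apart here. Without the 2 libraries that held transcripts of the other sex, the median of the 70 was -0.25, against 0.10 for all genes tested. The count called was 21 without 208ΔA male replicate 2, 24 without 208ΔA female replicate 1 and 26 without 208ΔG female replicate 1.

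Between 208ΔG and 208ΔF edgeR called 0 of the 70 genes (0% of all genes), with 32 of the 70 at an unadjusted p under 0.05, 30 of them lower in 208ΔG on the TMM scale. The direction turned with the scaling here too, with a median of -0.27 on the TMM scale and 0.28 with library size alone. The smallest p-values belonged to *mRpL51*, with a log2 fold change of -0.99 ± 0.21 (edgeR adjusted p = 0.0622), *mRpS7*, with -1.16 ± 0.29, *mRpS9*, with -1.06 ± 0.27, and *mRpS26*, with -1.09 ± 0.29. At an adjusted p under 0.1, 21 of the 70 (30%) were lower, where 23.7% of all genes were. At 0.05 DESeq2 called 22 and the other 2 tools 0. Between 208ΔF and 208ΔA edgeR called 0 of the 70 (0.00617% of all genes), with 1 of the 70 at an unadjusted p under 0.05, *mRpL12*, with -0.36 ± 0.16. The other 3 tools called 0 there too.

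Over all 4 lines together, with 3 degrees of freedom, edgeR called 0 of the 70 genes (0.191% of all genes), with 33 at an unadjusted p under 0.05. At an adjusted p under 0.1 the count was 33 (47.1%), a share below the 50.7% of all genes that passed. Neither count of 33 is thus read as a result about the 70 genes. DESeq2 called 34 of the 70 at an adjusted p under 0.05, limma-voom 18 and the linear model 0. The edgeR count was 30 and 19 when replicate 2 or replicate 1 of the DGRP_208 males was left out, 15 without 208ΔG female replicate 2 and 10 without 208ΔF female replicate 2. Calls for the line term thus turned on single libraries.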

How the data were processed

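RNA of 16 libraries was used, 2 per sex of 208ΔA, 208ΔF, 208ΔG and DGRP_208. By the methods, the authors filtered reads with AfterQC, aligned them with GSNAP to the reference genome and counted unique alignments per gene with featureCounts of Subread. For the aligner and the counter no version, and for the counting no strand setting, is given in the sources used here. The submitters' processing notes name dm6. The deposited counts are whole numbers with no normalization, and gene lengths stand beside them. Columns were assigned by sample title. Reads without molecular identifiers are not independent molecules, so limits from counts cover counting error only.

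Symbols were found for 17288 of 17490 identifiers. The 16212 genes whose median count reached 2 were tested with edgeR 4.0.16 (R 4.3.3) by its quasi-likelihood method, with TMM factors, 1 mean for each of the 8 groups of line and sex and 8 residual degrees of freedom. Benjamini-Hochberg adjustment ran over all of them, and calls were made below an adjusted p of 0.05. A standard error is the fold change divided by the root of its F statistic. The edgeR fit was also run on simulated counts of this design, whose outcome is not given here and is used for no result. CPM were scaled with TMM, and levels between genes were compared per kilobase. Positions and shared exon bases came from an Ensembl annotation of the dm6 assembly, whose gene lengths matched those of the table for all 70 genes.

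Genes were named by rule. Between the sexes and between 208ΔG and 208ΔA these were up to 5 higher and 5 lower with the smallest p. Only 3 of the 70 had a fold change above 0 between the sexes, and these 3 were named. In the other comparisons they were the 4 with the smallest p. The 4 highest and 4 lowest levels per kilobase, the gene under the count minimum, *tko*, *bonsai*, *mt:lrRNA* and *mt:srRNA*, and the 2 genes of each comparison list with the smallest p between the sexes and in deletion females were added, except for the chemoreceptors, which are given as a group. *mRpL39*, *mEFG1*, *TFAM*, the genes at a threshold and the genes named for not overlapping or for sharing exon bases were picked once their values were known. The members, the lists and the tests were chosen with earlier results of these data known.

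The alternatives were an adjusted p under 0.1, DESeq2 size factors, upper-quartile, GeTMM and size-only scaling, no filter, filterByExpr, DESeq2 1.42.0, limma-voom (limma 3.58.1), a per-gene linear model on GeTMM values, the replicate number as a block, the chemoreceptor level as a covariate, fits without the 2 libraries with transcripts of the other sex or without 208ΔG, and fits without 1 library at a time, in which the remaining library of that group is taken to vary as the other groups do. For the deletion comparisons within a sex, the libraries of that sex were also fitted alone. The linear model was tested on unlogged values, and log2 was taken of its group means only to give fold changes.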

Additional observations from a re-analysis of the deposited data

How the results depend on the processing

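The counts of the 70 genes called at an adjusted p under 0.05 changed by over 1.5 times in these settings. Between the sexes 42 became 26 with GeTMM factors. Between 208ΔG and 208ΔA 41 became 0 with the chemoreceptor covariate and 20 without the 2 libraries with transcripts of the other sex. From 0, the count for 208ΔG against DGRP_208 became 7 at an adjusted p under 0.1 and 9 with DESeq2, that for 208ΔG against 208ΔF 21 and 22, and that for the line term 33 and 34, 7 with size-only scaling and 18 with limma-voom. In the remaining comparisons the count was 0 in every setting run. Leaving out 1 library at a time, counts ran from 24 to 45 between the sexes, from 21 to 45 between 208ΔG and 208ΔA, from 0 to 24 for 208ΔG against DGRP_208, from 0 to 20 for 208ΔG against 208ΔF (20 without 208ΔG female replicate 2 or DGRP_208 male replicate 2, and 13 without DGRP_208 male replicate 1) and from 0 to 30 for the line term. The causes were not tested, and a fit that leaves out libraries also has fewer degrees of freedom. The share of all genes called is not set beside these counts, so they are not read as particular to the 70 genes.

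Fold changes near 0 changed sign. *mRpS33* between the sexes was -0.0363 with DESeq2 size factors, -0.0560 with upper-quartile factors, -0.0369 with DESeq2, -0.00945 with limma-voom, -0.00284 with the replicate block, -0.00516 with the covariate and -0.0935 without the 2 libraries, with -0.0700 to 0.0913 over single libraries left out. *mRpL16* was -0.0368, -0.0593, -0.0374 and -0.00577 in the first 4 of these, -0.000493 in the linear model, -0.00240 with the covariate and -0.0152 without the 2 libraries, with -0.0313 to 0.0789 over single libraries left out. *mRpL28* in 208ΔG against DGRP_208 was 0.0671 with size-only scaling. With the covariate, *mRpS18B*, *mRpS28*, *mRpL48* and *mRpL20* were at -0.197, -0.0925, -0.145 and -0.375 in 208ΔG against 208ΔA.

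Replicate numbers were not treated as pairs, because over 28 pairs of groups the deviations of same-numbered libraries correlated above 0.1 in 10, below -0.1 in 12 and from -0.88 to 0.76. With the replicate number as a block, 38 of the 70 genes were called between the sexes and 39 between 208ΔG and 208ΔA, and the counts for the remaining comparisons stayed at 0.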
